A study of Mus musculus with 16 samples.

Results

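The 10 genes described here encode enzymes that carry long-chain fatty acids into mitochondria and take them apart: Cpt1a, Cpt2, Acadvl, Acadl, Acadm, Hadha, Hadhb, Echs1, Eci1 and Acaa2. They were taken by gene name from a table of read counts on 55450 genes, each name matched 1 row, and all 10 passed the filter on low counts in every comparison. None of the 10 was called changed between Sirt2-/- and WT TILs in either cell type. Between CD8+ and CD4+ TILs of WT mice, Cpt1a was lower and Acadl higher in every CD8+ library than in every CD4+ library. Groups stood apart, in either direction, for 22.7% of all genes tested, so 2 of 10 members is no larger a share. Whether these 2 differences passed the adjusted threshold depended on the libraries, the tool and the model used.

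Tumor-infiltrating lymphocytes (TILs) were isolated from B16F10 melanomas, a line of mouse origin, grown s.c. in mice of 7–8 weeks, with no drug treatment given in the labels. The 4 groups were WT CD4+, Sirt2-/- CD4+, WT CD8+ and Sirt2-/- CD8+ TILs, with 4 libraries in each and 16 in all, and the labels name no strain for the WT mice. The Sirt2-/- mice were of the germline line B6.129-Sirt2tm1.1Fwa/J, so every cell of the host, and not T cells alone, lacked SIRT2, an NAD-dependent deacetylase, while the injected tumor cells carried no such deletion. TILs were enriched on a Percoll gradient and with CD3ε beads, how CD4+ and CD8+ cells were then separated is not given in the sources used here, and the p-values below measure the spread between libraries, which the labels do not tie to single mice.

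In fatty acid oxidation, long-chain acyl groups are joined to carnitine by CPT1 at the outer mitochondrial membrane and returned to coenzyme A by CPT2 inside, and each turn of the beta-oxidation spiral then shortens the chain in 4 reactions: dehydrogenation, hydration, a second dehydrogenation and thiolysis. Acyl-CoA dehydrogenases of overlapping chain-length range start each turn, the trifunctional protein built from HADHA and HADHB runs the other steps for long chains, and soluble matrix enzymes serve shorter ones. In T cells the pathway is known above all from memory and regulatory cells, while effector cells rely more on glycolysis and on fatty acid synthesis.

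Total counts per library ranged from 28000949 to 62407851, so counting error was small for genes at this level. In 3 libraries under 15000 genes had a count: the total was highest and the gene number lowest (8169) in Sirt2-/- CD4+ replicate 4, WT CD4+ replicate 1 had 12587 and WT CD8+ replicate 1 had 14411, against 17730 to 22138 in the other 13. Of genes with a mean of 100 counts or more across the remaining libraries from those cells, 34.9%, 7.26% and 1.57% were at 0 in these 3 libraries and at most 0.309% elsewhere. Sirt2 had 0 to 553 counts in Sirt2-/- CD4+ and 1681 to 2272 in WT CD4+ libraries, and 322 to 448 against 1196 to 1703 in CD8+ TILs (p = 0.0286 in each by a two-sided exact permutation test on CPM, the smallest that 4 against 4 allow). CPM is a gene's counts relative to the library total, scaled by TMM, a method that evens out composition between libraries. Cd4 stood at 384 to 620 CPM in CD4+ libraries and at most 4.94 in CD8+ libraries, and Cd8a at 1004 to 1262 in CD8+ and at most 33.4 in CD4+ libraries. The summed CPM of 12 myeloid markers moved with genotype: it was 21.1, 37.2, 64.8 and 149 in Sirt2-/- CD4+ replicates 1 to 4, the last with 9 of the 12 at 0, against 17.4 to 22.0 in WT CD4+ TILs, and 24.3 to 78.0 in Sirt2-/- against 21.8 to 31.9 in WT CD8+ TILs, with overlap in both cell types. The summed CPM of 7 melanoma markers was highest in WT CD4+ replicate 1 (102) and Sirt2-/- CD4+ replicate 4 (81.5), against 3.57 to 16.1 elsewhere. Transcripts of 4 Y-linked genes summed to 6.27 to 297 CPM in all 8 WT libraries. The highest were 297 and 271, in replicate 2 of CD4+ and CD8+ TILs. They summed to at most 0.452 CPM in the 8 Sirt2-/- libraries. RNA of male cells thus moved with genotype, and the 2 cannot be told apart. Xist, a transcript of female cells, was low only in WT replicate 2, at 67.5 CPM in CD4+ and 61.7 in CD8+ TILs. It was at 560 to 1298 CPM in the other WT libraries and 443 to 1111 CPM in Sirt2-/- libraries. The other WT libraries thus held RNA of female cells as well. The part of the marker genes in the values below was not tested. The 5 adipocyte markers, of a cell type rich in lipid, summed to at most 0.557 CPM in any library. In such bulk samples, fewer cells expressing a gene and less RNA per cell cannot be told apart. Each comparison of the members is therefore given for all libraries and with the 3 libraries of few genes left out.

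Sequence before a transcription start is shown for the 2 genes whose levels separated CD8+ from CD4+ TILs in WT mice and for the pair that shares 1 start region. The sequences are RefSeq's (GRCm38.p6), 5′ to 3′ on the strand of the gene (of Hadhb for the pair), cut to bases that lie in no annotated exon. Capitals mark GGGCGG (the GC box) and AGGTCA (a nuclear receptor core motif) on either strand. The first is chr19:3323051-3323284, plus strand, which ends at the base before the start of the Cpt1a transcript that runs to the end of the gene and lies in an intron of another Cpt1a transcript that starts further upstream. The second is chr1:66863310-66863559, minus strand, upstream of Acadl. The third, chr5:30155163-30155247, plus strand, is all that lies between Hadha, transcribed leftwards, and Hadhb, transcribed rightwards.
Cpt1a: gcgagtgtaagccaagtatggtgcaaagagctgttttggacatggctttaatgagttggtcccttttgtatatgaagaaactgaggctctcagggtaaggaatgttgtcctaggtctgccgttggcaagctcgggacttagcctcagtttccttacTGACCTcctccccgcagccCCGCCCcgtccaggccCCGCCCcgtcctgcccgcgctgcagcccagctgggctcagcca
Acadl: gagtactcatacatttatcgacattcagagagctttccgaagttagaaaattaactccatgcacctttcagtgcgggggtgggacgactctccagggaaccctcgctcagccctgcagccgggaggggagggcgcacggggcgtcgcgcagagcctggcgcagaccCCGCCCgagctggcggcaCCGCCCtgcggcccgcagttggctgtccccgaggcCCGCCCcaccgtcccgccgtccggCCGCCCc
Hadha-Hadhb: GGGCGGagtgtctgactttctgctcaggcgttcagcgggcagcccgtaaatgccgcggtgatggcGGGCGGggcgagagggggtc
These 3 stretches held 2, 4 and 2 GC boxes, and the AGGTCA motif occurred once, in the Cpt1a stretch. Windows of 300 bases around the start were at hand for 9 of the 10 genes. Those of Hadha (chr5:30154931-30155230) and Hadhb (chr5:30155003-30155302) overlap, so a motif in their shared bases counts in both. GGGCGG was found in 7 of the 9 and in 35.7% of all 32851 windows of that length, and AGGTCA in 4 of the 9 (Cpt1a, Acadvl, Acadm and Echs1) and in 16.3% of all. DR1, the direct repeat of AGGTCA with 1 base between, to which PPAR and RXR are known to bind as partners, was in none of the 9 and in 0.0396% of all. CCAAT was in 1 of the 9 (Cpt1a) against 37.4% of all, and CCGGAAG in 1 (Cpt2) against 8.86%. The GC share of the 9 windows ran from 50.7% to 70.3%, with a median of 52.7% over all windows.

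All 10 genes were expressed in TILs of every group. Scaled to the length of the principal transcript, Acadl stood highest in each of the 13 libraries with at least 15000 genes detected, at 42.5 to 86.8 CPM per kb, and Hadha, at 27.0 to 36.0, was next in all 13. Acaa2 (19.4 to 33.1), Cpt1a (19.1 to 28.1), Acadvl (16.2 to 26.8), Hadhb (15.98 to 23.3) and Acadm (14.1 to 22.6 CPM per kb) followed with ranges that overlapped, so their order could not be told. Echs1 (9.62 to 15.8), Eci1 (5.85 to 14.4) and Cpt2 (4.88 to 8.15 CPM per kb) were lowest, and Cpt2 came last in 12 of the 13. This order depends on which transcript is taken. Per kb of all annotated exons, Acadl was still first in all 13, whereas Acaa2 came next and Echs1, whose exons add up to 8.29 kb against 1.56 kb for its principal transcript, came last.

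**Figure D1:**
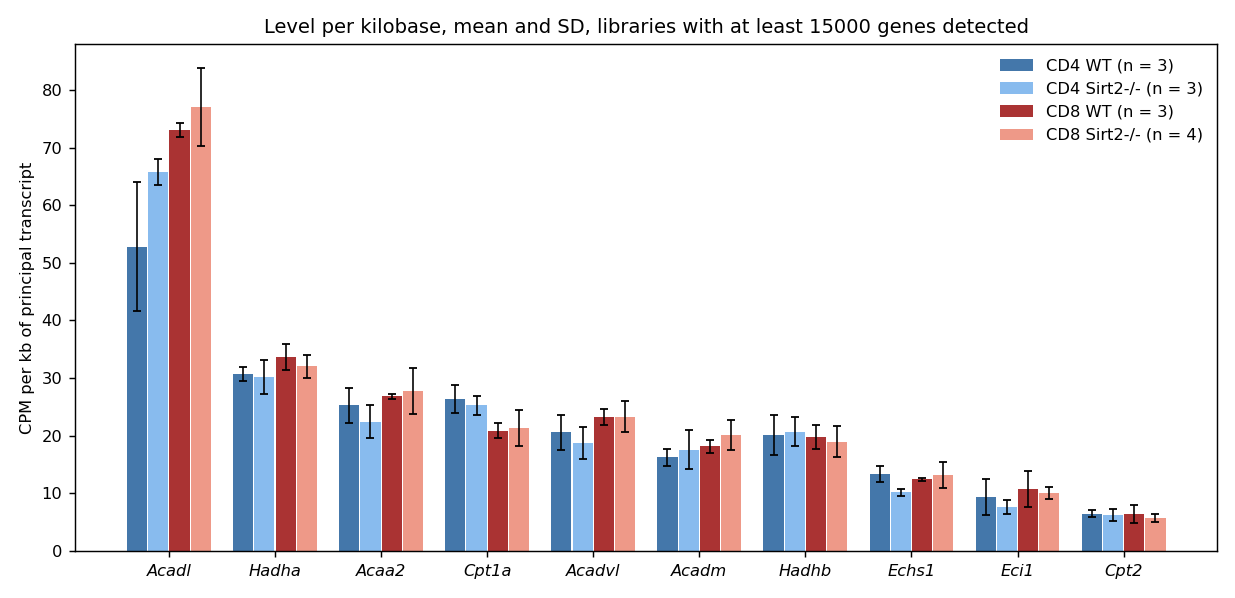
Mean level of each gene in CPM per kb of its principal transcript (y axis) in the 4 groups, with SD as error bars, over the 13 libraries with at least 15000 genes detected (n = 3, or 4 for Sirt2-/- CD8+). Acadl stands above the other 9 genes in every group, and its bars rise from WT CD4+ (52.8) to Sirt2-/- CD8+ TILs (77.0).

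Cpt1a (chr19:3322334-3385733, GRCm38, plus strand) encodes the CPT1 isoform of liver and lymphocytes, the step that malonyl-CoA inhibits. It was at 106, 121, 102 and 118 CPM in WT CD4+ replicates 1 to 4 and at 102, 116, 109 and 28.9 CPM in Sirt2-/- CD4+ replicates. In CD8+ TILs it was at 82.8, 95.6, 85.0 and 89.9 CPM in WT and at 91.1, 82.5, 111 and 83.5 CPM in Sirt2-/- replicates. WT CD4+ libraries thus all lay above WT CD8+ libraries, the genotypes overlapped in each cell type, and Sirt2-/- CD4+ replicate 4 lay below all other libraries. Of the other CPT1 genes, Cpt1b, the muscle form, reached at most 0.185 CPM in any library and Cpt1c, the brain form, at most 1.04 CPM. Cpt2 (chr4:107903981-107923610, minus strand) encodes the inner-membrane partner. It was at 27.2, 16.9, 15.1 and 13.9 CPM in WT CD4+ and at 13.7, 13.005, 17.5 and 0.0179 CPM in Sirt2-/- CD4+ TILs, the last being 1 read. It was at 22.3, 19.3, 13.4 and 12.9 CPM in WT and at 12.9, 14.7, 15.0 and 11.6 CPM in Sirt2-/- CD8+ TILs. Cpt2 was highest in WT replicate 1 of both cell types, both of them libraries with few genes detected, and the 4 groups overlapped.

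Acadl (chr1:66830839-66863277, minus strand) encodes the long-chain acyl-CoA dehydrogenase. It was at 107, 124, 98.3 and 81.4 CPM in WT CD4+ and at 127, 129.7, 121 and 78.9 CPM in Sirt2-/- CD4+ TILs. It was at 145, 141, 141 and 137 CPM in WT CD8+ and at 139.7, 139, 166 and 146 CPM in Sirt2-/- CD8+ TILs. Every CD8+ library stood above every CD4+ library, in both genotypes, and the 4 WT CD8+ libraries had a coefficient of variation of 2.13%, the smallest of any member and group. Acadvl (chr11:70010183-70015411, minus strand) encodes the very-long-chain enzyme of the inner membrane. It ranged from 35.3 to 51.7 CPM in WT CD4+, 22.5 to 47.0 in Sirt2-/- CD4+, 20.6 to 53.3 in WT CD8+ and 44.5 to 58.1 CPM in Sirt2-/- CD8+ TILs, and both lowest values were those of libraries with few genes detected. Its values are uncertain, since 42.9% of its exon bases overlap exons of Dvl2 on the opposite strand and the strand setting of the counting is not given in the sources used here. Acadm (chr3:153922357-153944632, minus strand) encodes the medium-chain enzyme. It was at 69.4, 31.2, 31.8 and 36.7 CPM in WT CD4+ TILs, where replicate 1 stood alone, and ranged from 28.0 to 42.7 in Sirt2-/- CD4+, 35.0 to 42.4 in WT CD8+ and 36.5 to 46.2 CPM in Sirt2-/- CD8+ TILs.

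Hadha (chr5:30118304-30155162, minus strand) and Hadhb (chr5:30155248-30184593, plus strand) encode the alpha and beta subunits of the mitochondrial trifunctional protein and lie head to head on either side of the 85 bases printed above. Hadha was at 117, 129, 123 and 119 CPM in WT CD4+, 108, 124, 131 and 223 CPM in Sirt2-/- CD4+, 98.8, 145, 135 and 126 CPM in WT CD8+ and 121, 122, 135 and 137 CPM in Sirt2-/- CD8+ TILs. Apart from Sirt2-/- CD4+ replicate 4, which stood far above the rest, the groups overlapped. Hadhb was at 33.6, 43.4, 47.1 and 33.1 CPM in WT CD4+, 37.4, 47.7, 42.1 and 23.3 CPM in Sirt2-/- CD4+, 23.6, 38.0, 45.5 and 38.3 CPM in WT CD8+ and 42.1, 32.7, 35.6 and 44.6 CPM in Sirt2-/- CD8+ TILs. The ratio of Hadha to Hadhb counts was 2.60 to 3.81 in the 13 libraries with at least 15000 genes detected, with a mean of 3.18 ± 0.43 (SD, n = 13). It was 9.55 in Sirt2-/- CD4+ replicate 4, from 12424 and 1301 counts, and 4.19 in WT CD8+ replicate 1. The ratio thus lay outside the range of the 13 libraries in these 2, furthest in the library that detected the fewest genes. With group means removed, log2 CPM of Hadha and Hadhb correlated at r = 0.38 over the 13 libraries and at -0.20 over all 16.

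Echs1 (chr7:140105710-140116476, minus strand) encodes the short-chain enoyl-CoA hydratase. It was at 20.9, 18.4, 22.0 and 22.0 CPM in WT CD4+ and at 15.0, 16.6, 15.8 and 5.59 CPM in Sirt2-/- CD4+ TILs, so that every Sirt2-/- library lay below every WT library. In CD8+ TILs the genotypes overlapped, with 12.6 to 19.8 CPM in WT and 16.1 to 24.6 CPM in Sirt2-/- libraries. Eci1 (chr17:24426641-24439348, plus strand) encodes an isomerase that moves the double bond of unsaturated fatty acids. It was at 17.0, 12.4, 12.9 and 6.65 CPM in WT CD4+, 7.11, 9.72, 9.11 and 0 CPM in Sirt2-/- CD4+, 3.66, 10.7, 9.60 and 16.4 CPM in WT CD8+ TILs, and from 10.2 to 12.9 CPM in Sirt2-/- CD8+ TILs. The value of 0 in Sirt2-/- CD4+ replicate 4 allows up to 3 counts, or 0.0537 CPM, by counting error alone. Acaa2 (74779197-74806208 on chromosome 18) encodes the thiolase of the last step. It ranged from 34.1 to 41.2 CPM in WT CD8+ and 35.9 to 50.2 CPM in Sirt2-/- CD8+ TILs, against 13.5, 33.7, 38.4 and 43.0 CPM in WT CD4+ and 34.8, 29.4, 37.9 and 0.0179 CPM in Sirt2-/- CD4+ TILs, where the last is again 1 read. The low values of Echs1, Eci1 and Acaa2 were mostly those of the 3 libraries with few genes detected, and in Sirt2-/- CD4+ replicate 4 as a whole 9 of the 10 genes were the lowest of their group and Hadha the highest.

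**Figure D2:**
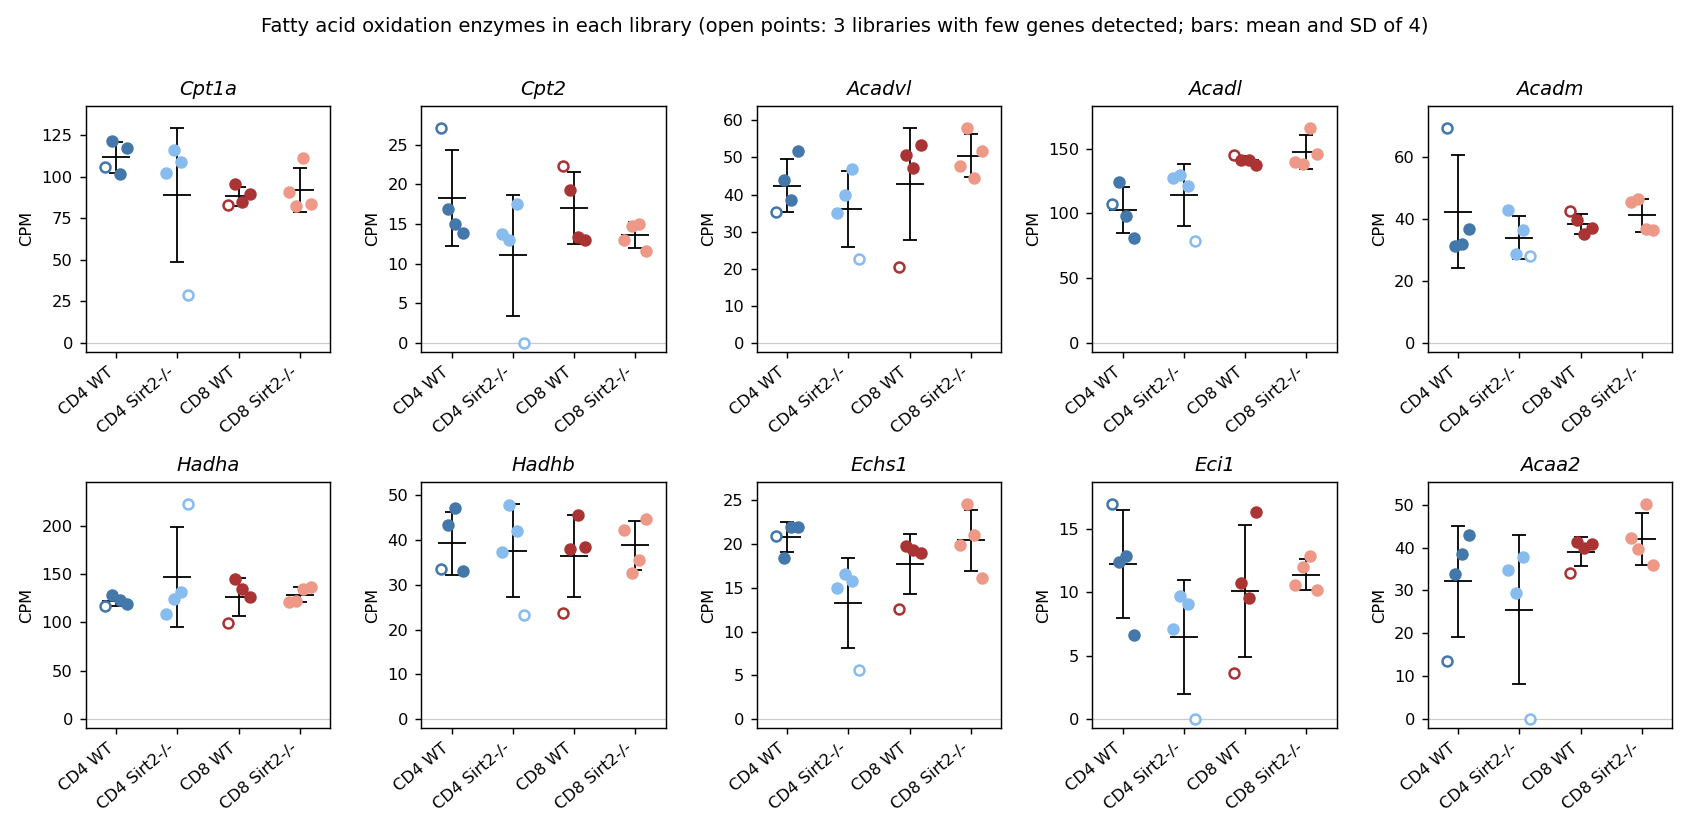
Level of each gene in CPM (y axis, from 0) in every library, by group, with the mean and SD of the 4 libraries as bars. Open points are the 3 libraries with under 15000 genes detected, and they account for the lowest values of Cpt1a (28.9), Cpt2 (0.0179), Eci1 (0) and Acaa2 (0.0179) and for the highest of Hadha (223).

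None of these genes differed detectably between Sirt2-/- and WT CD4+ TILs. With all 8 libraries edgeR did not call Sirt2 itself either, so this test could miss a large change. When any 1 library was left out, the log2 fold change of Sirt2 was -2.85 to -2.18 and it was still not called. Without libraries of few genes Sirt2 was called, at -1.945 (edgeR adjusted p = 0.00163). With all 8 libraries, 8 of the 10 had a log2 fold change below 0, against 8742 of the 15070 genes tested. The median was -0.31 for the 10 and -0.11 for all genes tested. The values of the 10 ran from -0.90 for Eci1 to 0.27 for Hadha, and their errors were wide. Eci1 differed by -0.90 ± 1.45 (SE) with a 95% confidence interval of -4.12 to 2.32. None of the 10 was called at an adjusted p below 0.05 by edgeR's quasi-likelihood test, none had an unadjusted p under 0.05, and DESeq2 called none, against a background of 0% of 15070 genes called, with 190 (1.26%) at an unadjusted p under 0.05 and 7 called by DESeq2. Echs1 was the only member whose groups did not overlap (log2 fold change -0.64, adjusted p = 0.9999), as was the case for 3.13% of all genes tested (1.82% with Sirt2-/- lower). Without libraries of few genes (3 against 3), the median of the 10 was -0.05, Hadha stood at -0.02 with an interval of -0.29 to 0.24, Cpt1a at -0.05 (-0.32 to 0.22) and Echs1 at -0.39 (-0.82 to 0.03), and again none was called or had an unadjusted p under 0.05, against 0.0374% and 4.35% of all genes. Acadl was then at 0.32 (-0.01 to 0.65, adjusted p = 0.99), the largest difference above 0 among the 10.

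In CD8+ TILs the difference between genotypes was small for every member. The log2 fold changes of Sirt2-/- against WT ran from -0.33 for Cpt2 to 0.23 for Acadvl, with a median of 0.10, against 0.01 for all genes. Of the 10 members 9 were above 0, against 51.9% of all genes tested. Cpt1a differed by 0.06 (95% interval -0.19 to 0.31), Acadl by 0.06 (-0.13 to 0.26), Hadha by 0.03 (-0.23 to 0.29) and Acaa2 by 0.11 (-0.18 to 0.39), so that changes beyond about these bounds were not seen in these 4 genes. None of the 10 was called by edgeR or DESeq2, none had an unadjusted p under 0.05 and none had groups apart, against 0.00654% of 15302 genes called by edgeR (1 gene, Sirt2), 3.78% at an unadjusted p under 0.05 and 2.95% with groups apart, and DESeq2 called 28 genes. Without WT CD8+ replicate 1 the median was 0.02, and 6 of the 10 were above 0, against 51.7% of all genes. The values of Hadha, Hadhb and Eci1 changed sign, to -0.07, -0.06 and -0.09. Again none was called and none had an unadjusted p under 0.05, against 0.0439% and 4.18% of all genes.

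Between cell types, 2 members stood apart in WT mice. Cpt1a was 0.75 times as high in CD8+ as in CD4+ TILs, at 88.3 ± 5.68 against 112 ± 9.33 CPM (SD, n = 4 each), with a log2 fold change of -0.41 ± 0.12 (SE). Acadl was 1.31 times as high, at 141 ± 3.01 against 103 ± 17.7 CPM, with a log2 fold change of 0.39 ± 0.14. In neither did the groups overlap, which held for 22.7% of all genes tested (12.6% higher and 10% lower in CD8+ TILs). By edgeR's quasi-likelihood test the adjusted p was 0.0555 for Cpt1a and 0.106 for Acadl (unadjusted 0.0070 and 0.0180), so that with all 8 libraries neither was called, against 11.9% of 14892 genes called and 24.3% at an unadjusted p under 0.05. That fit takes no account of replicate number. With replicate number as a block, edgeR called Cpt1a and no other member from the same 8 libraries. DESeq2 called both, with adjusted p = 0.0187 and 0.0467. With replicate 1 of both cell types left out, edgeR called both as well, Cpt1a at -0.34 ± 0.11 (adjusted p = 0.0442) and Acadl at 0.46 ± 0.14 (adjusted p = 0.0351), and 28% of all genes were then called (37.9% at an unadjusted p under 0.05), so that 2 of 10 members is no larger a share than among all genes. Leaving out WT CD4+ replicate 1 alone took Acadl past the threshold (0.47, adjusted p = 0.0447).

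The other 8 members did not differ detectably between WT CD8+ and CD4+ TILs. Their log2 fold changes ran from -0.35 for Eci1 to 0.20 for Acaa2 with all libraries, and from -0.11 for Echs1 to 0.19 for Eci1 without libraries of few genes, where Acadm, Acadvl, Hadha and Eci1 turned from below to above 0. The 95% intervals without these libraries were narrowest for Hadha (-0.10 to 0.35) and widest for Eci1 (-0.47 to 0.86). The median over the 10 members was -0.18 with all libraries and 0.10 without them, against -0.02 and 0.01 for all genes tested.

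In Sirt2-/- TILs the comparison of CD8+ with CD4+ cells rested largely on Sirt2-/- CD4+ replicate 4. With it, 9 of 10 members were above 0, against 58.4% of all genes, and the median was 0.31, against 0.16 for all genes. Acadl was at 0.35 ± 0.18 (SE, edgeR adjusted p = 0.564), and Cpt1a was at 0.03 with a 95% interval of -0.86 to 0.92. None of the 10 was called by edgeR or DESeq2 and none had an unadjusted p under 0.05, against 2.24% of 15787 genes called by edgeR, 11.7% at an unadjusted p under 0.05 and 1339 genes called by DESeq2, while Acadl and Eci1 were higher in every CD8+ than in every CD4+ library, where 22.2% of all genes had groups apart (16% higher). Without it, Cpt1a stood at -0.28 ± 0.12 (unadjusted p = 0.0371, adjusted p = 0.112), and Acadl was at 0.19 ± 0.10 (adjusted p = 0.176). Echs1 (0.34), Eci1 (0.37), Acadvl (0.28) and Acaa2 (0.27) were likewise above 0 with adjusted p of 0.166 to 0.21, so that none of the 10 was called where 25.4% of all genes were, and 1 had an unadjusted p under 0.05 where 35.6% of all genes had.

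The cell type comparisons of the 2 genotypes share no library with each other, but each shares its groups with the genotype comparisons above. Whether the effect of genotype differed between CD8+ and CD4+ TILs was tested in 1 fit over all 16 libraries. No member was called, none had an unadjusted p under 0.05 and DESeq2 called none, against 0% of 17270 genes called by edgeR (342, or 1.98%, at an unadjusted p under 0.05, and 2 called by DESeq2). The difference between the 2 effects was 0.39 for Cpt1a (95% interval -0.47 to 1.24) and -0.09 for Acadl (-0.58 to 0.40). Without libraries of few genes it was 0.09 for Cpt1a (-0.26 to 0.44) and -0.24 for Acadl (-0.61 to 0.13), and the largest was that of Echs1, 0.47 with an interval of -0.01 to 0.95 (unadjusted p = 0.0541), with 0% of all genes called and 3.69% at an unadjusted p under 0.05.

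**Figure D3:**
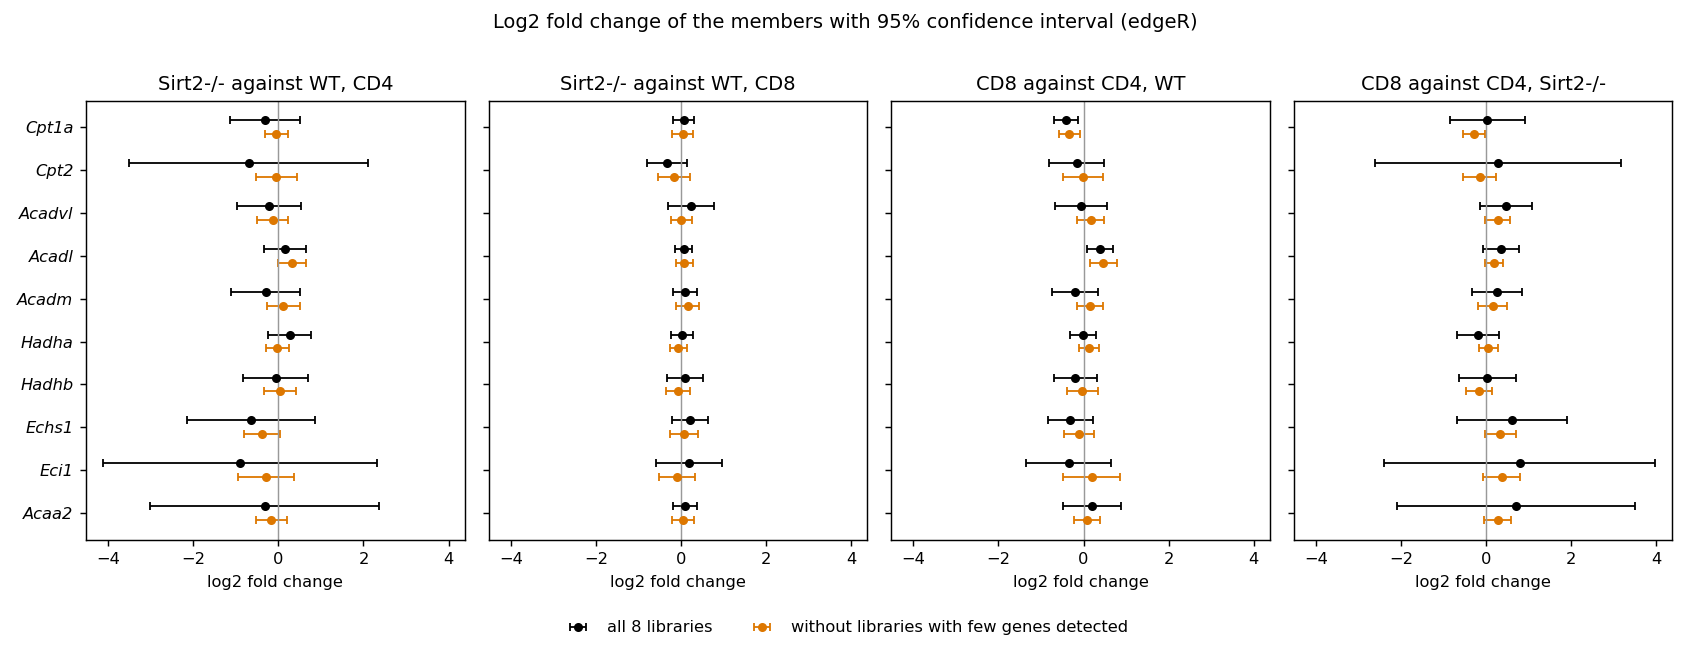
Log2 fold change of each gene (x axis) with its 95% confidence interval in the 4 comparisons, from all 8 libraries (black) and without libraries of few genes (orange). Intervals of Cpt2, Eci1 and Acaa2 span several log2 units where Sirt2-/- CD4+ replicate 4 is included, and only those of Cpt1a and Acadl in WT TILs exclude 0 with all libraries.

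The wider pathway was read from 9 lists with 83 genes of the table. No gene of any of the 9 lists was called between genotypes, in either cell type, by edgeR, with all libraries or with the 13. Between WT CD8+ and CD4+ TILs, edgeR called 8 genes: of fatty acid uptake and activation 2 of 10 tested were higher, of the other mitochondrial beta-oxidation enzymes 1 of 12 was higher and 1 lower, of the electron transfer flavoprotein 1 of 3 was higher, of fatty acid synthesis 2 of 8 were higher, and of the release of fatty acids from stores 1 of 5 was lower. None of the other 4 carnitine shuttle genes tested, 4 genes of propionyl-CoA disposal, 12 of peroxisomal beta-oxidation and 13 regulators was called. The share of all genes called in that comparison was 11.9%. Without the libraries of few genes, 20 of 73 tested genes of these lists were called (9 higher and 11 lower), the 8 among them, where 28% of all genes were called. In Sirt2-/- TILs they were 17 of 74 (10 higher and 7 lower), where 25.4% of all genes were called.

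The 2 genes of fatty acid synthesis were the rate-limiting carboxylase Acaca, which makes malonyl-CoA for the synthesis, and the synthase Fasn. Acaca was at 17.0, 35.8, 28.9 and 44.1 CPM in WT CD4+ and at 76.3, 86.5, 80.3 and 81.6 CPM in WT CD8+ TILs, with a log2 fold change of 1.29 ± 0.26 (SE, edgeR adjusted p = 0.00788). Fasn was at 98.6 to 190.1 CPM in WT CD4+ and 176 to 305 CPM in WT CD8+ TILs (0.82 ± 0.23, adjusted p = 0.0400). The groups of Acaca stood apart and those of Fasn overlapped, and the call of Fasn was lost when any of 5 of the 8 libraries was left out (adjusted p up to 0.123). In Sirt2-/- TILs these were the only 2 genes of the 9 lists called by edgeR, Fasn at 1.15 ± 0.16 (adjusted p = 0.00895) and Acaca at 1.41 ± 0.25 (adjusted p = 0.0302). The call of Acaca there was lost when any library other than Sirt2-/- CD4+ replicate 4 was left out (adjusted p up to 0.133), and without replicate 4 it was at 1.22 (adjusted p = 7.02e-05).

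Of the genes that activate fatty acids, Acsl5, an acyl-CoA synthetase of mitochondria and endoplasmic reticulum, was at 86.1 ± 5.86 CPM in WT CD4+ and 144 ± 9.87 CPM in WT CD8+ TILs (SD, n = 4), with a log2 fold change of 0.67 ± 0.12 (SE, edgeR adjusted p = 0.00426). Acsl6, another synthetase, had no count in any of the 4 WT CD4+ libraries and 255, 56, 137 and 45 counts in WT CD8+ replicates 1 to 4. Its mean in WT CD8+ TILs (3.55 CPM) was 45.3-fold the mean of a floor of 3 counts per WT CD4+ library (0.0784 CPM). With WT replicate 1 of both cell types left out it was 30.3-fold. These folds rest on mean levels and are no lower bound for single CD8+ libraries. The level of Acsl6 in WT CD8+ TILs was low, at 1.27 to 7.72 CPM, and highest in replicate 1. In Sirt2-/- CD8+ TILs it was at 0.342 to 0.963 CPM, below every WT CD8+ library (edgeR log2 fold change -2.37, adjusted p = 0.986), where 2.95% of all genes had groups apart. Sirt2-/- CD4+ replicate 3 was at 0.497 CPM and the other Sirt2-/- CD4+ libraries had no count. The cell types thus overlapped in Sirt2-/- TILs (CD8+ against CD4+ 2.43, edgeR adjusted p = 0.756).

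Beside the members, 3 genes of beta-oxidation and its electron carrier were called in WT TILs. Acat1, the thiolase that ends the pathway and serves ketone bodies, was at 28.1 to 45.4 CPM in WT CD4+ and 64.6 to 69.9 CPM in WT CD8+ TILs (0.73 ± 0.18 SE, edgeR adjusted p = 0.0222). Etfa, a subunit of the flavoprotein that takes electrons from the acyl-CoA dehydrogenases, was at 23.2 to 38.8 CPM in WT CD4+ and 49.9 to 56.5 CPM in WT CD8+ TILs (0.71 ± 0.20, adjusted p = 0.0429). Acads, the short-chain acyl-CoA dehydrogenase, was lower, at 43.8 to 81.3 CPM in WT CD4+ and 26.9 to 38.1 CPM in WT CD8+ TILs (-0.78 ± 0.22, adjusted p = 0.0453). Its call was lost when any 1 of the 8 libraries was left out (adjusted p 0.0646 to 0.144), and its highest value was in WT CD4+ replicate 1, without which it was at -0.45. Acat1 kept its call in 4 and Etfa in 3 of the 8 cases (adjusted p up to 0.0771 and 0.122). Lipe, which encodes hormone-sensitive lipase, was at 27.5, 12.98, 11.1 and 13.9 CPM in WT CD4+ and 3.72, 5.08, 5.66 and 6.32 CPM in WT CD8+ TILs (-1.71 ± 0.38, adjusted p = 0.0129), and at -1.16 over the 6 other libraries. Leaving out WT CD8+ replicate 2 ended the call of Lipe (adjusted p = 0.0603). With all 16 libraries in 1 model, Lipe (adjusted p = 0.537), Acat1 (0.247) and Acads (0.166) were not called, and the other 5 of the 8 genes were.

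**Figure D4:**
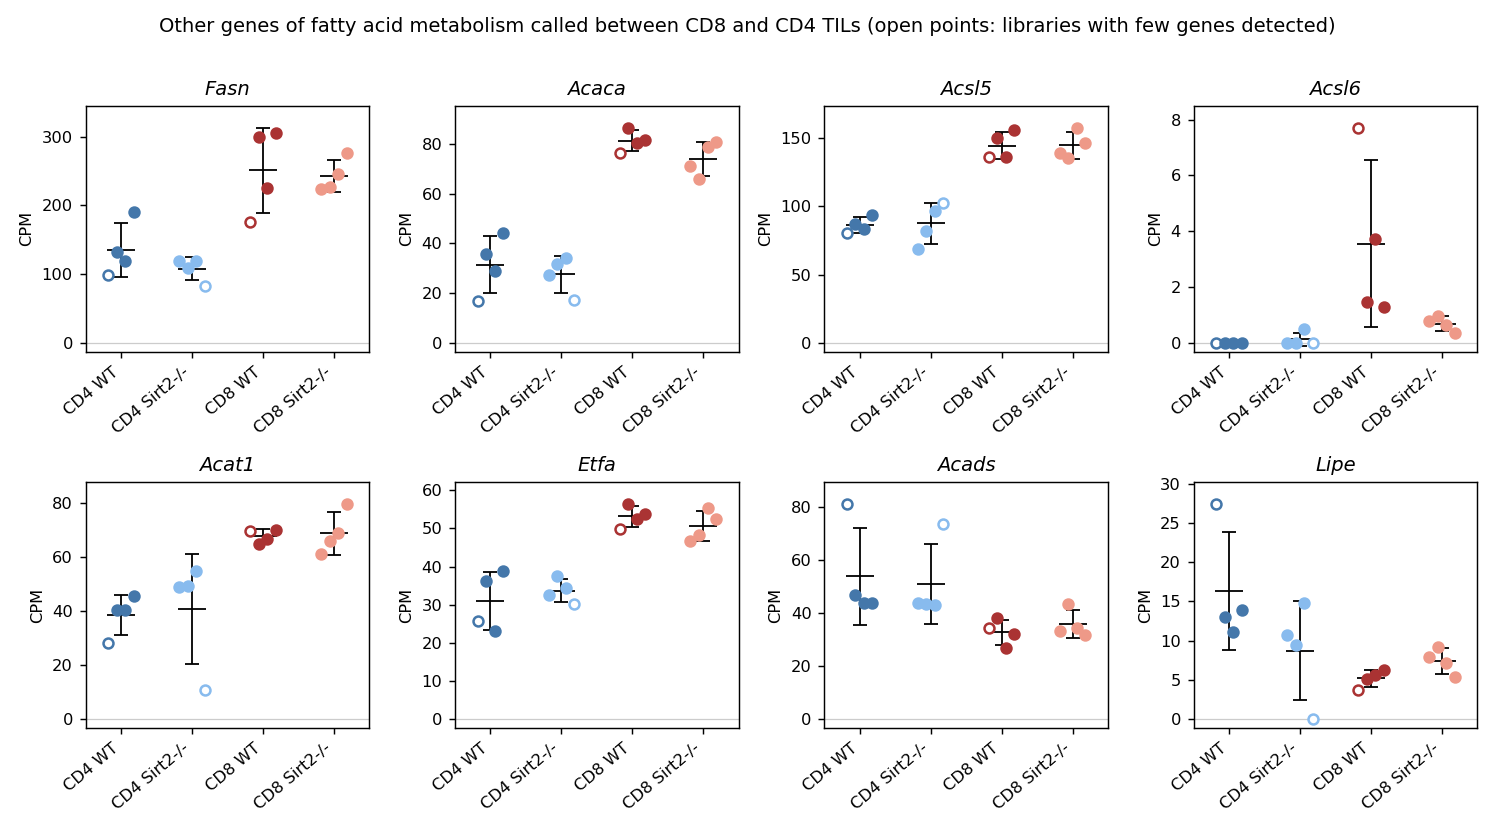
Level in CPM (y axis, from 0) of the 8 genes of fatty acid metabolism, other than the members, called between WT CD8+ and CD4+ TILs, in every library by group, with mean and SD as bars and open points for libraries with few genes detected. Acaca, Acsl5, Acat1 and Etfa stand higher in all 8 CD8+ libraries than in all 8 CD4+ libraries, and Acsl6 is at 0 in all 4 WT CD4+ libraries.

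Among themselves the members varied together more when the 3 libraries with few genes detected were included. Over all 16 libraries, with the group means removed, 34 of the 45 pairs of members had a correlation above 0, with a median of 0.55, against 27 of 45 and a median of 0.14 over the other 13 libraries. The points share libraries and scaling, so these are descriptions. The summed level of the 10 members was 524.8 to 574 CPM in WT CD4+, 409.8 to 567 in Sirt2-/- CD4+, 486 to 601 in WT CD8+ and 571 to 628 CPM in Sirt2-/- CD8+ TILs. Other genes were ranked by the correlation of their log2 CPM with the mean log2 CPM of the members, here without removing group means. Over 16 libraries the first were Ap2s1 (r = 0.999), Trmt2b, Ech1, Klhl25 and Mrpl4 (r = 0.996), where the median over 17260 genes was 0.45. The mean log2 CPM of the members was 2.30 in Sirt2-/- CD4+ replicate 4 and 4.96 to 5.47 in the other libraries, so these values rest largely on that replicate. Over the 13 libraries the first genes were Gstp3 (r = 0.957), Man2b2, Mid1ip1, Rac2 and Ap2s1 (r = 0.919), where the median was 0.03.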

How the data were processed

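RNA of CD4+ and CD8+ TILs was sequenced with a stranded total RNA kit, and the authors deposited whole-number read counts per gene for 16 libraries. The submitters' processing notes name STAR, HTSeq and mm10; versions and the strand setting are not given in the sources used here. All 55450 gene identifiers matched GENCODE M21 (GRCm38). The members and lists were chosen with earlier results of these data known.

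Counts were filtered with filterByExpr, scaled by TMM and tested with edgeR 4.0.16 (limma 3.58.1, R 4.3.3) by the robust quasi-likelihood test, two-sided, with Benjamini-Hochberg adjustment over all genes tested and a threshold of 0.05. Each pair of groups was fitted alone, and the difference between genotype effects over all 16 libraries. A prior count of 2 entered log2 CPM. The edgeR fit of each pair of groups, with all their libraries, was tested on simulated data, and the other fits were not. Alternatives were DESeq2 1.42.0 and its size factors, no filter, 1 model for all libraries, a replicate block, leaving out each library, and leaving out the 3 libraries under 15000 genes. All exon lengths in place of the principal transcript were chosen after seeing the data. Named beside the members were list genes called in a comparison, Sirt2 and the 5 genes most like the members in level. Cpt1b and Cpt1c were named after their values were seen. Intervals of a count of 0 (a floor of 3 counts) cover counting error only.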

Additional observations from a re-analysis of the deposited data

Results flagged for a closer look

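In 6 of 44 sets of 4 libraries tested, the highest or lowest library lay further from the others than Dixon's 95% limit for 4 values, where chance gives about 2.2. In Sirt2-/- CD4+ replicate 4, Cpt1a was at 28.9 CPM against 102 to 116 in the other 3, Acadl at 78.9 against 121 to 129.7, and Echs1 at 5.59 against 15.0 to 16.6. Acadm stood at 69.4 CPM in WT CD4+ replicate 1 against 31.2 to 36.7, and Echs1 at 12.6 CPM in WT CD8+ replicate 1 against 18.97 to 19.8. These 5 values are all from the 3 libraries with the fewest genes detected. The other was the summed level of the 10 members in Sirt2-/- CD8+ replicate 3, 628 CPM against 571 to 573 in the other 3.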

How the results depend on the processing

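Counts of all genes called moved most. Between genotypes they were 7 (DESeq2) and 6 (without the 3 libraries under 15000 genes) in CD4+ TILs, and 28 (DESeq2), 5 (no filter), 7 (without WT CD8+ replicate 1) and 0 to 7 (leaving out 1 library) in CD8+ TILs. Between cell types they were 2651 (DESeq2), 811 (all 16 libraries in 1 model), 4394 (without the 3) and 1022 to 2767 (leaving out 1) in WT, and 1339, 781, 4250 and 111 to 4250 in Sirt2-/- TILs. DESeq2 called 2 genes for the difference between genotype effects. In WT the number of members called was 2 with DESeq2, 2 without the 3 libraries and 0 to 1 leaving out 1 library, and their median log2 fold change was 0.10 without the 3.

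Same-numbered WT CD4+ and CD8+ libraries had residual correlations of 0.123, 0.11, 0.133 and 0.098, and Sirt2-/- ones of 0.15, 0.0264, -0.0179 and -0.0234. The libraries were therefore taken to share only a number. Each WT library nevertheless correlated best with its own number, and the Y-linked levels of WT replicates 1 to 4 ran alike in both cell types. The main tests between cell types thus leave out a pairing that the WT libraries may have. With a replicate block, 1 member was called in WT (Cpt1a, adjusted p = 0.0490), 4 genes were called between genotypes in CD8+ TILs and 108 between cell types in Sirt2-/- TILs, and Lipe was at 0.49 there. The block also ended the WT calls of Acsl6 (adjusted p = 0.0684), Acads (0.0603) and Lipe (0.0609), and the other 5 listed genes stayed called. Acads was not called with DESeq2 size factors (0.0606) or with no filter (0.0621) either.

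Log2 fold changes near 0 changed sign in some settings. Without the 3 libraries they were 0.12 (Acadm), -0.023 (Hadha) and 0.043 (Hadhb) between genotypes in CD4+ TILs, -0.067 (Hadha), -0.060 (Hadhb) and -0.095 (Eci1) in CD8+ TILs, 0.15 (Acadm), 0.17 (Acadvl), 0.13 (Hadha) and 0.19 (Eci1) between cell types in WT, and -0.28 (Cpt1a), -0.15 (Cpt2), 0.051 (Hadha) and -0.16 (Hadhb) in Sirt2-/- TILs, and -0.11 (Cpt2) and -0.10 (Hadhb) for the difference. In WT, Hadha was at 0.0040 with DESeq2 and with its size factors, 0.056 with no filter and 0.052 in 1 model, and Acadvl at 0.024 and 0.018 in the last. Leaving out 1 library gave ranges of -0.44 to 0.026 (Acadm), -0.19 to 0.12 (Hadhb) and -0.59 to 0.090 (Acaa2) in CD4+, and -0.032 to 0.12 (Cpt1a), -0.067 to 0.11 (Hadha), -0.060 to 0.23 (Hadhb) and -0.095 to 0.52 (Eci1) in CD8+ TILs between genotypes. Between cell types they were -0.28 to 0.15 (Cpt2), -0.31 to 0.20 (Acadm), -0.18 to 0.23 (Acadvl), -0.052 to 0.13 (Hadha) and -0.31 to 0.021 (Hadhb) in WT, and -0.28 to 0.19 (Cpt1a), -0.15 to 0.58 (Cpt2), -0.33 to 0.051 (Hadha), -0.16 to 0.17 (Hadhb) and -0.68 to 0.12 (Lipe) in Sirt2-/- TILs. For the difference they were -0.025 to 0.71 (Cpt2), -0.24 to 0.00067 (Acadl), -0.36 to 0.019 (Hadha) and -0.030 to 0.29 (Hadhb). The cause was not tested.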
